A study of Mus musculus with 4 samples.

Results

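Goblet cells are the mucus-secreting cells of the gut epithelium, and 10 genes known for goblet cell products and goblet cell identity were followed across the 4 arrays of a Musashi1 crosslinking and immunoprecipitation experiment. The genes were chosen by symbol, and every probe set annotated to 1 of them alone was taken. Of the 10, 9 were found, each on a single probe set, among 19937 genes measured. The tenth, Fcgbp, which encodes a large protein of the mucus, was listed only on probe sets shared with other genes.

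The material was intestinal epithelium of adult C57BL/6 mice, with RNA and protein crosslinked by ultraviolet light before precipitation. RNA was recovered with an antibody to Msi1 (Musashi1, an RNA-binding protein of gut progenitor cells), with an antibody labelled hnRNP (heterogeneous nuclear ribonucleoprotein, a family that coats nascent transcripts) or with nonspecific IgG. Unprecipitated RNA was the input. The labels name neither the hnRNP targeted nor the number of animals. Each group had 1 array, which carried RNA combined from 2 experiments, so no value has a replicate error and no test was possible. From each group 100 ng of RNA was labelled, so the signals compare the makeup of the RNA at equal mass and not the amount precipitated. The stated purpose was to rank transcripts by their enrichment in Msi1 over IgG in order to prioritize genes.

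The mucus gel of the intestine is built from Muc2, a gel-forming mucin that is folded in the endoplasmic reticulum, heavily glycosylated in the Golgi and released from granules. Small secreted proteins such as Zg16 and the trefoil peptide Tff3 are packed and released with it. The goblet cell programme depends on the transcription factor Atoh1 and, downstream of it, Spdef. Musashi proteins bind short motifs with a UAG core in transcripts and are studied as regulators of their stability and translation.

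Detection was judged against olfactory and vomeronasal receptor genes, which gut epithelium is not expected to express. The 95th percentile of 1208 receptor probe sets was the detection floor of an array, at a log2 signal of 4.09 on the input array, 5.26 on the IgG array, 4.74 on the Msi1 array and 5.17 on the hnRNP array. In such bulk RNA fewer cells of a type and less RNA per cell cannot be told apart. All 9 goblet genes lay above the floor on input and on Msi1, and 6 of the 9 did so on IgG and on hnRNP. Over all genes measured, 59.1% lay above it on input, 47.8% on Msi1, 28.1% on IgG and 32.9% on hnRNP. On input 10 of 10 enterocyte markers and 6 of 6 Paneth cell markers also exceeded the floor, which goes with the label of epithelium. On that array 4 of 7 macrophage and lymphocyte markers, 4 of 9 stromal and muscle markers and 0 of 4 neuron and glia markers did so. With 59.1% of all genes above that floor, these counts do not show that immune or stromal cells were absent. Signals of different probe sets are not comparable as levels, so each gene was followed across the arrays and not against other genes.

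Among the structural and packaging components of mucus, Muc2 (chr7:141690340-141754691 of GRCm38.p6, as are all positions given) read a log2 signal of 11.57 on input, 6.99 on Msi1, 5.66 on IgG and 5.08 on hnRNP. Input was far the brightest, Msi1 stood next, and the hnRNP value lay below its floor. Zg16, a lectin-like protein of goblet cell granules that binds bacterial cell walls (chr7:127050156-127052675), read 12.08 on input, 9.86 on Msi1, 7.63 on IgG and 6.36 on hnRNP. It kept the order of Muc2 and was above the floor on every array. Tff3, a trefoil peptide of mucosal repair (chr17:31125306-31129611), read 10.62 on input, 6.76 on Msi1, 6.16 on IgG and 5.80 on hnRNP. Its precipitated signals lay close together, with Msi1 the highest of them.

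Agr2, a disulphide isomerase of the endoplasmic reticulum required for Muc2 production (chr12:35992925-36004081), read 11.01 on input, 7.08 on Msi1, 5.86 on IgG and 3.72 on hnRNP. It was brightest on input, and its hnRNP value lay 1.45 log2 units below the floor. Spink4, which encodes a Kazal-type protease inhibitor secreted by goblet cells (chr4:40920056-40931395), read 9.44 on input, 5.91 on hnRNP, 5.78 on IgG and 5.32 on Msi1. It was the only gene of the set, apart from Spdef, that was dimmer with the Msi1 antibody than with IgG. Both of these Spink4 values were near their floors, 0.58 log2 units above on Msi1 and 0.52 on IgG.

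Guca2a (guanylin) and Guca2b (uroguanylin) encode peptides that activate the guanylate cyclase Gucy2c and so promote chloride and fluid secretion onto the mucus. Guca2a read 8.95 on input, 6.97 on Msi1, 5.54 on hnRNP and 4.90 on IgG. Guca2b read 10.79 on input, 6.84 on Msi1, 5.55 on hnRNP and 4.74 on IgG. Both had the order input, Msi1, hnRNP, IgG, and both were below the floor on IgG. The Guca2a value on IgG was shared exactly by 147 probe sets of that array, so it was a common low value of the deposited table.

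Ccl6, a CC chemokine made in the gut epithelium and also by macrophages (chr11:83587886-83593087), read 8.67 on input, 6.28 on Msi1, 4.92 on hnRNP and 4.74 on IgG. It was below the floor on both IgG and hnRNP. Of 7 macrophage and lymphocyte markers, 4 were above the floor on input (range 2.90 to 8.49), 2 on IgG (4.02 to 5.88), 1 on Msi1 (3.11 to 4.83) and 1 on hnRNP (3.77 to 5.38). Csf1r and Adgre1 were below the floor on every array, Cd68 was above it on input only (4.91), and Lyz2, which read 8.49 on input, was above it also on IgG (5.42) and Msi1 (4.83). The part of such cells in the Ccl6 signal was not tested.

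Spdef, the ETS-family factor of goblet cell maturation (chr17:27714446-27731003), was the exception. It read 7.41 on IgG, 6.49 on hnRNP, 6.03 on input and 5.88 on Msi1. The IgG array was its brightest and the Msi1 array its dimmest, all 4 values were above their floors, and the range was only 1.53 log2 units. Above the floor of the same array it stood 2.14 log2 units on IgG, 1.95 on input, 1.32 on hnRNP and 1.15 on Msi1.

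**Figure D1:**
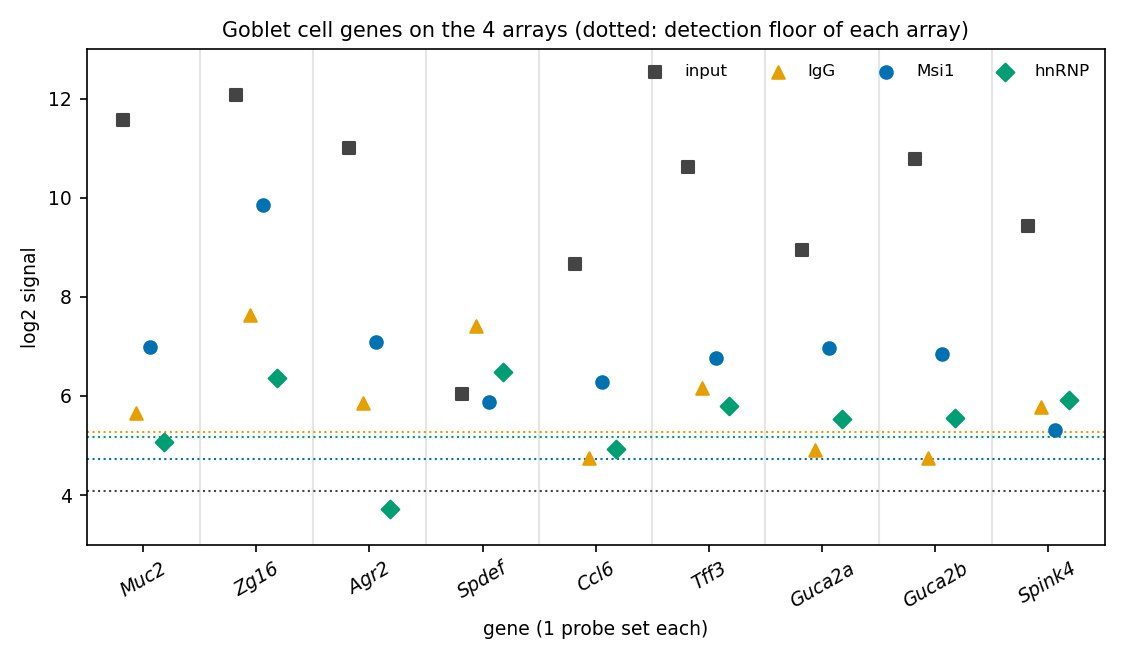
Log2 signal (vertical axis) of the 9 goblet cell genes (horizontal axis) on the input, IgG, Msi1 and hnRNP arrays, 1 point per array, with the detection floor of each array as a dotted line in the same colour. Input is the brightest array for 8 of the genes, from 8.67 to 12.08, while Spdef is brightest on IgG at 7.41.

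Fcgbp could not be read apart from other genes. The probe set shared by Fcgbp and 9530053A07Rik read 6.28 on input, 5.36 on Msi1, 4.90 on hnRNP and 4.50 on IgG, with IgG and hnRNP below their floors. A further 2 probe sets listed Fcgbp together with Gm31005 and the ribosomal protein gene Rpl41, and they differed from each other in Msi1 against input by −2.80 and 0.05. None of the 3 was counted among the goblet genes.

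Guca2a and Guca2b lie on chromosome 4, at 119637732 to 119639465 and 119656601 to 119658945, with 17135 bases between them. The promoter sequences of this neighbouring pair, and of Muc2, the gene that gives the mucus its structure, are shown because the pair had the same order of the 4 arrays and Muc2 another. An immunoprecipitation of RNA does not measure promoter activity, so they describe the genes and not the result. Each run is the 250 bases before the annotated start, 5′ to 3′ on the gene's strand, from RefSeq, where 7 of the 10 genes had an entry. Capitals mark matches on either strand to motifs of factors that act in the gut epithelium. The letters searched were GTTAAT for a part of the site of the factor HNF1. For the zinc finger factors of the GATA family they were AGATAA on either strand. For the homeobox factors of the CDX family they were TTTATG on either strand. The general promoter element called the TATA box was searched as TATAA and in Muc2 adjoins a GATA match.
Guca2a, chr4:119637482-119637731, plus strand: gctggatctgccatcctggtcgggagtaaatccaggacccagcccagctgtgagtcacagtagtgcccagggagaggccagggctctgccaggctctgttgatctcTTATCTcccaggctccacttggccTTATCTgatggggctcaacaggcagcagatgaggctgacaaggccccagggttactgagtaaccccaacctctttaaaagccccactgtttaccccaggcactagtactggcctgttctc
Guca2b, chr4:119658946-119659195, minus strand: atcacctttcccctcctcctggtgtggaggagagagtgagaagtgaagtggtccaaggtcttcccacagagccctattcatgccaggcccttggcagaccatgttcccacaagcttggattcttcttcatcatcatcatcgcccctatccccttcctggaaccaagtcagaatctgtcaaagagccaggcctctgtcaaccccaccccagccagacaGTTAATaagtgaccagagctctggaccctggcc
Muc2, chr7:141690090-141690339, plus strand: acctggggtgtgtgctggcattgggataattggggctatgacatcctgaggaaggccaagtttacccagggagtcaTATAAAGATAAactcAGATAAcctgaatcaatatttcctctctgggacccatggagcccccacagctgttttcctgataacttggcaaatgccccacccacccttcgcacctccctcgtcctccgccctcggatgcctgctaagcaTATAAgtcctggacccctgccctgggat

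The Guca2a window held the GATA letters at 2 places, 144 and 120 bases before the start. In the Guca2b window the only match was the HNF1 letters, 33 bases before the start. Muc2 had the GATA letters at 2 places and the TATA letters at 2 places, 1 of them 28 bases before the start. Of 32851 promoter windows of the same length, 9.99% held the GATA letters, 6.43% the HNF1 letters, 10.8% the CDX letters and 22.8% the TATA letters.

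Msi1 was compared with IgG to find what the Msi1 antibody recovered above background. Of the 9 goblet genes, 6 were at least 2-fold higher with Msi1 and 1 was at least 2-fold lower, against 18.6% higher and 6.91% lower among the 10368 genes that exceeded the floor of 1 or both of these arrays. With values below a floor taken at that floor, the same 6 goblet genes were higher and 1 was lower, against 10.8% and 3.88% of the genes tested. Zg16 was 4.70-fold higher (2.23 log2 units). Muc2 was 2.52-fold higher (1.33) and Agr2 was 2.34-fold higher (1.22). Where the IgG value lay below its floor the fold is a lower bound, and it was at least 3.25-fold for Guca2a, at least 2.99-fold for Guca2b and at least 2.02-fold for Ccl6. Their deposited values differed by 2.06, 2.10 and 1.54.

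Tff3 and Spink4 were within 2-fold of IgG, with differences of 0.60 and −0.47. The receptor genes, taken without a floor, had a median of −0.38 in this comparison. With the arrays centred on them Spink4 differed by −0.12 and Spdef by −1.18, so the sign for Spink4 cannot be told from a shift of background. Spdef was 2.88-fold lower with Msi1 (−1.53), and 1.33% of the genes tested lay further below IgG. The median over the goblet genes was 1.33, beside 0.06 over all genes tested. The excess over IgG was larger among genes that were bright on input, as 8 of the goblet genes were. Among the 1336 tested genes with an input signal of at least 8, 49.5% were at least 2-fold higher with Msi1, 1.12% were lower and the median was 0.99. Of the 8 goblet genes with such a signal, 6 were higher and 0 lower, with a median of 1.43.

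Within that bright range the goblet genes were spread over most of the distribution. With every value below a floor taken at that floor, the Zg16 difference exceeded those of 86.0% of the bright genes. The Muc2 difference exceeded 68.7%, that of Agr2 66.5% and that of Tff3 47.2%. For Guca2a, Guca2b and Ccl6, whose IgG values lay below the floor, the differences were then 1.70, 1.58 and 1.01 and exceeded 78.0%, 75.1% and 60.2% of the bright genes. Spink4, with both signals near their floors, exceeded 7.11% and so stood near the lower end. The order of Zg16, Guca2a, Guca2b and Ccl6 was not kept by every scaling, since quantile normalization gave 1.53, 2.20, 2.34 and 1.83. With quantile normalization and with loess centring Agr2 fell short of 2-fold, at 0.93 under both, and 5 genes were higher. The other goblet genes stayed on their side of 2-fold with every scaling tried, although the share of higher genes among all calls moved from 72.9% as deposited to 59.4% with quantile normalization and 91.3% with the arrays centred on the receptor genes.

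**Figure D2:**
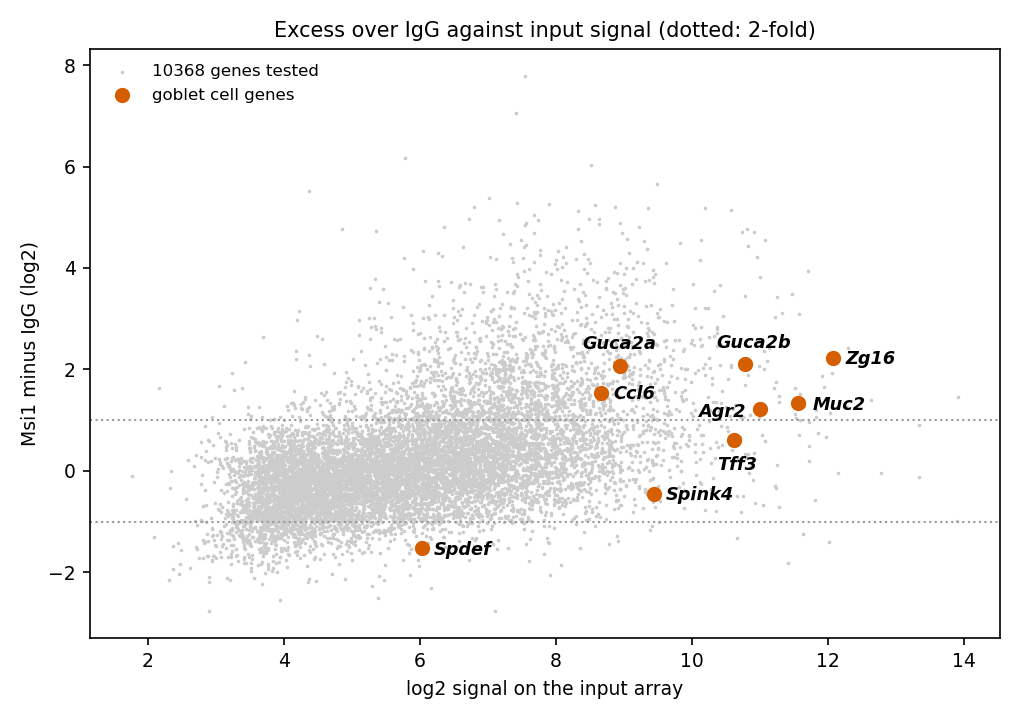
Difference of log2 signals, Msi1 minus IgG (vertical axis), against the log2 signal on input (horizontal axis) for the 10368 genes tested (grey) and the 9 goblet cell genes (orange), with dotted lines at 2-fold. The goblet genes with an input signal of at least 8 run from −0.47 (Spink4) to 2.23 (Zg16), and Spdef lies apart at an input signal of 6.03 and a difference of −1.53.

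Msi1 was next set against input, the RNA from which it was drawn. Here 8 of the 9 goblet genes were at least 2-fold lower with Msi1 and 0 were higher, against 38.3% lower and 11.8% higher among 12782 genes tested. Muc2 was 23.9-fold lower (−4.58), Spink4 17.5-fold lower (−4.13), Guca2b 15.5-fold lower (−3.95), Agr2 15.2-fold lower (−3.93) and Tff3 14.4-fold lower (−3.85). These 5 genes formed a group well apart from the other 3 that were lower. Ccl6 was 5.27-fold lower (−2.40), Zg16 4.65-fold lower (−2.22) and Guca2a 3.95-fold lower (−1.98), while Spdef differed by −0.15.

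The median over the goblet genes was −3.85, beside −0.57 over all genes tested. Bright genes were lower as a class. They were chosen by their signal on input, the array subtracted here, and this choice favours lower values on the other array. The same applies to IgG against input. Of those with an input signal of at least 8, 88.2% were at least 2-fold lower with Msi1, 0.922% were higher and the median was −2.61. Against these bright genes Muc2 lay low, with 3.48% of them further below input in the deposited values. The limit of 8 does not match genes on input signal, where Muc2 read 11.57, so these ranks still hold part of that dependence. The share further below input was 8.51% for Spink4, 11.3% for Guca2b, 11.6% for Agr2 and 12.6% for Tff3. Ccl6, Zg16 and Guca2a lay in the upper part of the bright genes, above 57.4%, 63.1% and 70.1% of them.

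The size of these differences depended on the scaling, and the arrays had unequal spreads. With loess centring 5 goblet genes were at least 2-fold lower, against 18.3% of all genes tested. These were Muc2 (−2.72), Spink4 (−2.41), Guca2b (−2.13), Agr2 (−2.09) and Tff3 (−2.04). Ccl6 (−0.67), Zg16 (−0.25) and Guca2a (−0.24) were then within 2-fold of input, and the Spdef difference was 0.98. Of all calls in this comparison 23.6% were higher as deposited, 49.4% with loess centring, 39.4% with quantile normalization, 13.4% with the arrays centred on their medians and 4.48% with the arrays centred on the receptor genes.

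The guanylin peptides, which differed from IgG by 2.06 and 2.10, stood apart in this comparison, Guca2a at −1.98 and Guca2b at −3.95. With 1 array each, these values have no error.

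**Figure D3:**
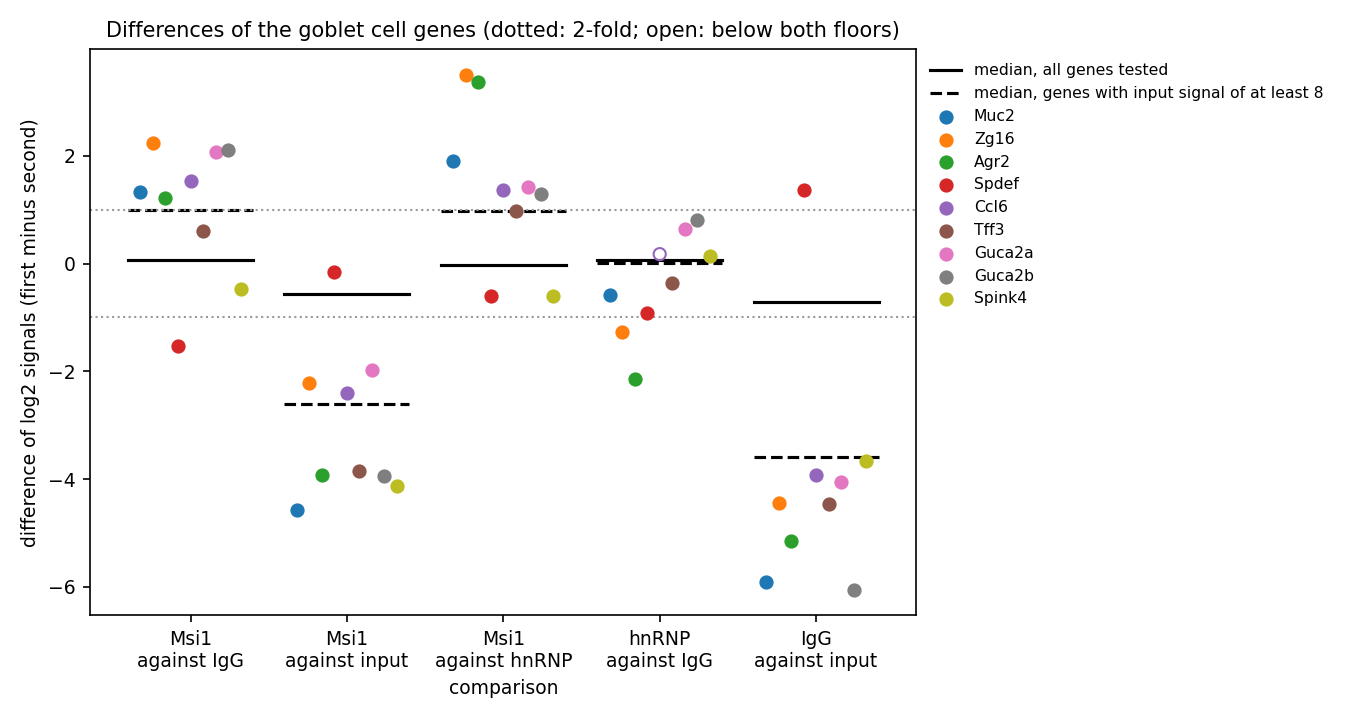
Differences of log2 signals (vertical axis, first array minus second) of the 9 goblet cell genes in 5 comparisons (horizontal axis), 1 point per gene, with the median of all genes tested (solid line), the median of genes with an input signal of at least 8 (dashed line) and 2-fold (dotted lines); the open point is Ccl6, below both floors. In Msi1 against input, Muc2, Spink4, Guca2b, Agr2 and Tff3 lie between −4.58 and −3.85, below the dashed line at −2.61.

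Against the hnRNP antibody, a second protein-directed precipitation, 6 of the 9 goblet genes were at least 2-fold higher with Msi1 and 0 were lower. Over the 10673 genes tested 17.5% were higher and 7.79% lower (10.9% and 4.05% with values below a floor taken at it, where the same 6 goblet genes were higher), and among those with an input signal of at least 8 the shares were 48.9% and 2%. Zg16 was 11.3-fold higher with Msi1 (3.50). This exceeded 93.4% of the bright genes in the deposited values, and 96.2% with values below a floor taken at it. Agr2 differed by 3.36, a fold of at least 3.77 because its hnRNP value lay below the floor, and Muc2 by 1.91, at least 3.54-fold. Guca2a was 2.69-fold higher (1.42), Guca2b 2.44-fold higher (1.29) and Ccl6 at least 2.16-fold higher (1.36). Tff3 stood just short of 2-fold at 0.97 and passed it with the arrays centred on their medians (1.09) or on the receptor genes (1.25). Spink4 and Spdef differed by −0.60 and −0.61. The median over the goblet genes was 1.36, beside −0.02 over all genes tested and 0.98 over the bright genes. This comparison shares the Msi1 array with both comparisons before it, so they are not separate evidence.

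The hnRNP precipitation was compared with IgG in the same way. Of 8 goblet genes that exceeded the floor of 1 or both arrays, 0 were at least 2-fold higher and 2 were lower, against 6.26% higher and 4.51% lower among 7917 genes. Among the bright genes 7.55% were higher and 8.33% lower. With values below a floor taken at that floor, 1 goblet gene was lower, against 1.17% of all genes tested. Zg16 was 2.41-fold lower with hnRNP (−1.27). Agr2 differed by −2.14, but with the hnRNP value raised to its floor by −0.69, a fold of at least 1.61. Guca2a and Guca2b differed by 0.64 and 0.81, while Muc2, Tff3 and Spdef differed by −0.58, −0.36 and −0.92 and Spink4 by 0.13. Ccl6 was below both floors and was left out.

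IgG was compared with input to show how the RNA recovered without a specific antibody differed in makeup from the starting RNA. In this comparison 8 of the 9 goblet genes were at least 2-fold lower with IgG and 1 was higher, against 44.7% lower and 16.6% higher among 12693 genes, and 99.1% lower and 0.213% higher among the bright genes. Muc2 was 60.3-fold lower (−5.91), Agr2 35.6-fold (−5.15), Tff3 21.9-fold (−4.45), Zg16 21.8-fold (−4.45) and Spink4 12.7-fold (−3.66). With the IgG value at its floor, Guca2b was at least 46.2-fold lower, Guca2a at least 12.8-fold and Ccl6 at least 10.6-fold. Spdef was 2.59-fold higher on IgG than on input (1.37). It stayed above input with every scaling tried, from 0.41 with the arrays centred on the receptor genes to 3.86 with loess centring. The receptor genes, taken without a floor, were themselves higher on IgG than on input by a median of 0.96. Of these 1194 genes, 567 were at least 2-fold higher on IgG. For Zg16 the direction turned with loess centring, to 0.78.

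Genes that act with the goblet products were examined in lists drawn up by function. In Msi1 against IgG 18.6% of all genes tested were at least 2-fold higher, and 10.8% with values below a floor taken at that floor. Among the bright genes the shares were 49.5% and 40.1%. In the deposited values, secreted products (1 of 6), transcription factors (1 of 9) and granule genes (2 of 9) stood near the share over all genes. Among the other mucins, 4 of 10 measured were above the floor on Msi1 or IgG, 2 were at least 2-fold higher with Msi1 and 0 were lower, with a median of 1.13. Both were membrane mucins of the epithelial surface. Muc13 read 11.11 on input, 8.23 on Msi1, 6.07 on IgG and 5.26 on hnRNP and was 4.47-fold higher than IgG. Muc3 read 10.83, 7.15, 5.26 and 4.78 in the same order and was 3.69-fold higher, with an IgG value that 95 probe sets shared and that was also the floor. The gel-forming mucins Muc5b and Muc6, known from airway and stomach, differed by 0.37 and −0.08, with IgG values below the floor.

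The list called secreted goblet products held genes not all confined to goblet cells, among them Lypd8 and Ang4. Of its 6 tested genes, 1 was at least 2-fold higher with Msi1 than with IgG and 0 were lower, with a median of −0.23. Clca1, a metalloprotease of the mucus gel, read 10.61 on input, 6.58 on Msi1, 5.36 on IgG and 4.20 on hnRNP and was 2.32-fold higher. The chemokine gene Ccl9 differed by 0.46 and Lypd8, a bacteria-binding surface protein, by −0.12, although Lypd8 read 13.35 on input. The antimicrobial ribonuclease gene Ang4 and the stomach trefoil gene Tff1 differed by −0.48 and −0.61.

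Of the transcription factors of the goblet lineage, 1 of 9 tested was at least 2-fold higher with Msi1, 0 were lower and the median was 0.11. Atoh1, which commits cells to the secretory lineage, read 7.11 on input, 6.30 on Msi1, 5.03 on IgG and 4.84 on hnRNP and was at least 2.05-fold higher than IgG. Its Msi1 signal lay 0.81 log2 units below input. Xbp1, which expands the secretory pathway, differed from IgG by 0.50 and Foxa3 by 0.40, while Sox9 and Foxa1 differed by −0.25 and −0.30. The lowest of the 9 was Foxa1, while Spdef lay at −1.53.

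In the folding and secretory list 6 of 18 tested genes were higher with Msi1 than with IgG by 2-fold in the deposited values, 5 with IgG taken at its floor, and 0 were lower, with a median of 0.46. Serp1, a membrane protein of the endoplasmic reticulum that acts under stress, was 12.0-fold higher (3.59). The disulphide isomerase gene Pdia3 was at least 8.33-fold higher (3.68) and Ostc, a subunit of the N-glycosylation complex, 4.72-fold higher (2.24). Both Serp1 and Pdia3 lay within 2-fold of input, at −0.37 and −0.80, where Agr2 lay at −3.93. Ern2, the stress sensor of mucus cells, and Sdf2l1 differed from IgG by −0.43 and −0.29.

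Of 15 mucin glycosylation genes tested, 7 were higher by 2-fold in the deposited values, 4 with IgG taken at its floor, and 0 were lower, with a median of 0.91. C1galt1, the enzyme that builds the core 1 structure of mucin O-glycans, read 8.95 on input, 8.53 on Msi1, 5.33 on hnRNP and 4.87 on IgG. It was at least 9.64-fold higher with Msi1 than with IgG. Galnt1, which starts O-glycan chains, was at least 3.37-fold higher (2.52). The sialic acid transporter gene Slc35a1 differed by 2.19, at least 1.24-fold. Galnt2 differed by −0.06 and the sialyltransferase gene St3gal1 by −0.97 on 1 probe set and 0.00 on the other.

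Of 9 tested genes of granule release and further goblet functions, 2 were higher by 2-fold in the deposited values, 0 with IgG taken at its floor, and 0 were lower, with a median of 0.18. The 2 were Scin, an actin-severing protein (1.12), and Sytl2, a Rab27 effector (1.04), both with an IgG value below the floor. Sytl4 differed by 0.68, Rep15 by −0.44 and Rab3d by −0.57. Of 6 tested genes of guanylin signalling, 3 were higher by 2-fold in the deposited values, 1 with IgG taken at its floor, and 0 were lower, with a median of 0.79. Gucy2c, the receptor of both guanylin peptides, read 9.09 on input, 5.39 on Msi1, 4.92 on IgG and 3.94 on hnRNP and differed from IgG by 0.47. The anion exchanger gene Slc26a3 was at least 6.17-fold higher (4.10), the chloride channel gene Cftr differed by 1.84 (at least 1.32-fold) and Pde5a by 1.12 (at least 1.63-fold). The sodium-hydrogen exchanger gene Slc9a3 differed by 0.42. The kinase gene Prkg2 differed by 0.15 on 1 probe set and 0.66 on the other.

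**Figure D4:**
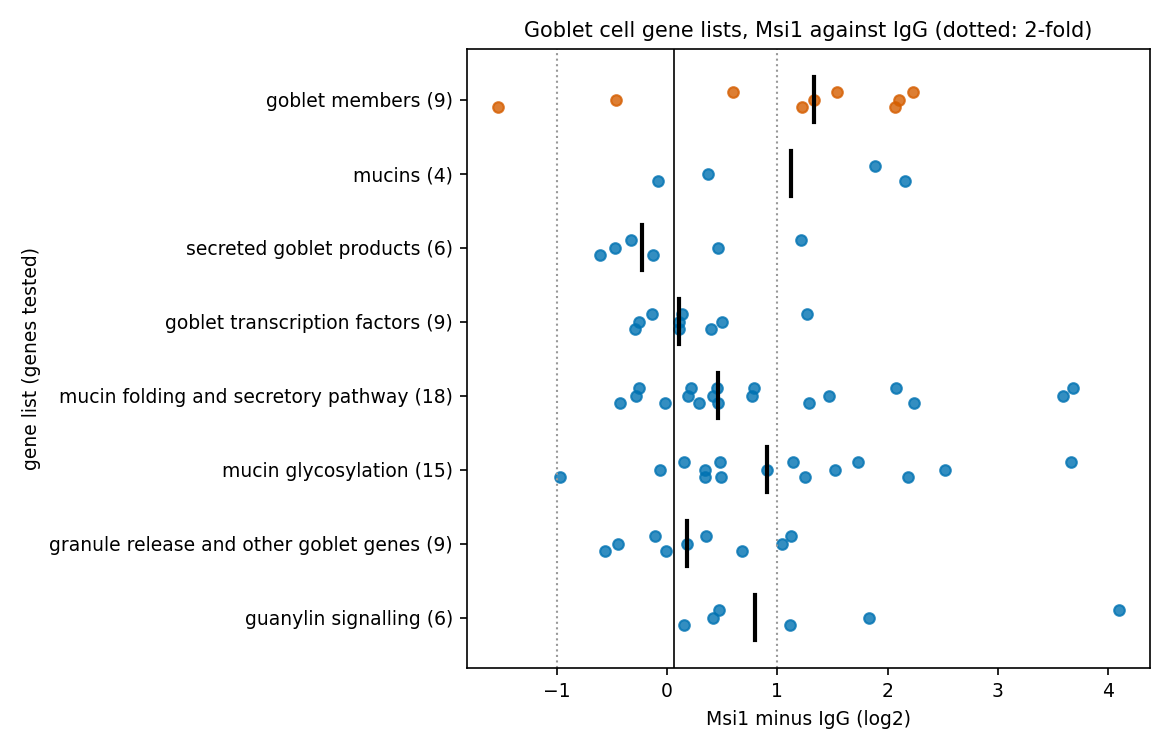
Difference of log2 signals, Msi1 minus IgG (horizontal axis), of each gene tested in the goblet set and in 7 lists of related genes (vertical axis, number of genes tested in brackets), with the median of each list as a bar, the median of all genes tested as a thin line and 2-fold as dotted lines. The goblet set runs from −1.53 to 2.23 with a median of 1.33, and the medians of the other lists run from −0.23 (secreted goblet products) to 1.13 (mucins).

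Markers of the other main epithelial types gave a setting for the goblet values. Enterocyte markers, read for 10 genes, had medians of 1.60 in Msi1 against IgG and −2.99 in Msi1 against input. Paneth cell markers had medians of 1.93 over 5 genes and −3.12 over 6 genes. Other types differed in these medians and also in input signal. Enteroendocrine markers had medians of 0.16 over 6 genes and −1.86 over 8. Tuft markers had −0.52 over 3 genes and 0.11 over 6, and stem markers 0.09 over 3 and −1.24 over 4. The goblet medians were 1.33 and −3.85. Median input signals were 10.62 for the goblet genes, 11.16 for enterocyte and 10.91 for Paneth cell markers. They were 6.77 for enteroendocrine, 4.93 for tuft and 6.41 for stem markers. Since both comparisons moved with input signal over all genes, cell type and input signal cannot be told apart in these medians. Differences between these lists were not tested, since genes are not replicates.

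Genes with a profile like that of the goblet set were sought among 12668 other genes, by the root mean square distance between the 4 log2 values, each gene centred on its own mean. Closest to the median goblet profile were Ogdh (distance 0.06), Ddx1 (0.07), Prxl2a (0.08), Naaladl1 (0.10) and Actn4 (0.10). The nearest gene to Muc2 was Mt2 (0.05), to Guca2b Uprt (0.04), to Guca2a Nup153 (0.07) and to Ccl6 Lrba (0.06). Tff3 was closest to Caprin1 (0.09), Spink4 to Pfn1 (0.06) and Spdef to Dnmt3aos (0.06). Zg16 and Agr2 had no close match, with Ywhae at 0.24 and Mgam at 0.21. These distances use the deposited values, also those below a floor. Ogdh, Ddx1, Naaladl1, Uprt, Nup153, Lrba, Caprin1 and Dnmt3aos were below it on 2 arrays and Ywhae and Mgam on 1, while Prxl2a, Actn4, Mt2 and Pfn1 were above it on all 4. Within the set the closest pair was Ccl6 and Guca2a, both below the IgG floor, at 0.22, and Spdef was the most isolated, at 1.92 from its nearest member, Spink4.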

How the data were processed

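The table analysed holds 1 log2 value per probe set and array as deposited by the authors, for 34760 probe sets on Affymetrix Mouse Gene 1.0 ST arrays. The submitters' processing notes name affy, without a version. How background and scale were handled is not stated there, and base 2 was read from the range, 1.07 to 14.3. The standard deviation over probe sets was 2.01 on the input array, 1.17 on IgG, 1.38 on Msi1 and 1.20 on hnRNP, so the arrays had not been brought to 1 distribution. Precision is limited by the number of arrays, 1 per group, and signal over the floor takes the place of depth.

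Of the probe sets, 21640 had 1 gene symbol, 1321 several and 11799 none here. For genes with several probe sets the one with the highest mean was used. Differences of log2 values were taken where 1 or both arrays of a pair exceeded the floor, and called at 2-fold. A fold whose dimmer value lay below the floor was computed against the floor. The median, quantile, receptor and loess (span 0.4) scalings, floors, thresholds and probe set rules given in the closing section were alternatives. A shift under alternatives was judged against the standard deviation of the receptor differences, 0.53 to 0.68. This is a spread over genes near background between different arrays. It is not a replicate spread and gives no error for brighter genes. Calls were tested on simulated data with a common floor for all arrays and shifts far over the threshold. This checks the code and gives no error for a call. The members, lists and comparisons were chosen with earlier results of these data known. Genes named from a list are the 3 highest and 2 lowest tested in Msi1 against IgG, and Gucy2c. The signal limit of 8 on input, and the counts of related lists and the ranks with values taken at the floor, were chosen after the values were seen. Python 3.11.15, pandas 2.3.3, numpy 2.4.6, statsmodels 0.14.6 and matplotlib 3.10.9 were used.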

Additional observations from a re-analysis of the deposited data

How the results depend on the processing

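Of 180 counts and medians of the goblet genes recomputed under 12 alternatives, 157 kept to the value reported, 23 moved and 0 reversed. Of 511 differences of single genes, 453 kept to it, 57 moved and 1 reversed, that of Zg16 in IgG against input with loess centring (0.78). The alternative detection floors and fold thresholds do not enter a difference. The probe set rules could not change a difference, since each goblet gene had 1 probe set. Only the scalings and taking the dimmer value at its floor could change one, so most kept values are no sign of stability. The probe set rules could not change the counts and medians either. Causes were not tested, except that stricter rules leave fewer genes. With detection on both arrays, 3 of 6 genes were higher in Msi1 than in IgG, against 7.87% of all genes tested. In Msi1 against hnRNP 3 of 6 were higher (6.91% of all genes). In hnRNP against IgG 1 of 4 was lower (1.34%), and in IgG against input 5 of 6 were (32.1%). A 3-fold threshold gave 3 higher and 0 lower in Msi1 against IgG (10.2% and 1.12% of all genes) and 3 higher against hnRNP (10.3%). It gave 1 lower in hnRNP against IgG (0.594%) and 0 higher in IgG against input (8.73%). A 1.5-fold threshold gave 2 lower in Msi1 against hnRNP (22.6% of all genes) and 2 higher in hnRNP against IgG (18.5%). With the dimmer value at its floor, 1 was lower in hnRNP than in IgG (1.17% of all genes). With quantile normalization the medians were −2.38 in Msi1 against input and −2.74 in IgG against input. Under that scaling 1 gene was higher in hnRNP than in IgG (12.8% of all genes). Centring on the receptors gave medians of −4.47 and −5.41. It and centring on the median left 0 higher in IgG against input (4.14% and 11.3% of all genes). Loess centring gave 5 lower in Msi1 than in input (median −2.04) and 4 in IgG than in input (median −0.99). Of all genes tested, 18.3% and 22.2% were lower in these 2 comparisons. No paired analysis was possible because each group had 1 array.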
